A study of Mus musculus with 8 samples.

Results

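The genes described here encode proteins of the complement system and of blood coagulation, taken as the probe sets that were present on both array types of the study and whose single gene symbol is one of 44 named members. Of those members 40 had such a probe set, 52 probe sets in all, out of 22690 probe sets shared by the arrays and 12394 genes with a shared probe set of 1 symbol. C3, C4b, Cfd and Cpb2 had none and were not analysed here. Members were grouped by textbook source. The hepatocyte-made group held 36 of the 40 genes, the C1q subunits, which tissue macrophages make, held 3, and properdin (Cfp), which leukocytes make, stood alone.

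All mice were p53-/- and on a C57BL/6J background. The 6 tumour arrays each carried RNA of 1 hepatocellular carcinoma (HCC) from HBs transgenic mice aged 12 to 15 months, which express a hepatitis B virus surface antigen, with 3 tumours from mTERC+ mice and 3 from mTERC- mice, which lack the RNA component of telomerase. The remaining 2 arrays, of another type, carried liver RNA taken 48 h after intravenous adenovirus, pooled from 3 mice given the TRF2DBDM virus and from 3 mice given the GFP virus. TRF2DBDM is a shortened version of TRF2, a protein that binds and protects telomeres. The question of the series was telomere dysfunction in liver. The tissue field reads hepatocytes for every array, and Alb, the gene of albumin, had a signal of 38450 to 53965 in the tumours and of 11361 and 8672 in the TRF2DBDM and GFP pools. Markers of other cells were also measured. Adgre1, a macrophage receptor, ranged from 193 to 1181 in the tumours, and Pecam1, an endothelial adhesion molecule, ranged from 9.3 to 279.

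Complement is a cascade of plasma proteases that tags and lyses targets. It is started by antibody-bound C1q, by lectins that bind sugars, or by the alternative pathway, and it passes through convertases to the terminal components that form a membrane pore. Coagulation is a separate cascade in which vitamin K-dependent proteases generate thrombin, thrombin turns fibrinogen into fibrin, and plasmin dissolves the clot. The liver parenchyma makes most of both systems, while the subunits of C1q come mainly from macrophages, in liver the Kupffer cells.

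Several members lie next to each other in the genome, with no other protein-coding gene between them in the RefSeq table of GRCm38.p6. These are C1qb, C1qc and C1qa; Fgg, Fga and Fgb; C8b and C8a; C1ra and C1s1; Cfb and C2; F7 and F10; and F11 and Klkb1. Promoters of RefSeq genes (GRCm38.p6) were matched by symbol for 35 of the 44 members. The stretches below end 1 base before the annotated start site. They are shown because C9 had the highest TRF2DBDM over GFP ratio of the members, Fga and Fgb had ratios among the lowest and lie beside Fgg, and C1qb is a macrophage-made contrast. Capitals mark matches, on either strand, to GTTAAT (HNF1), TTGCNNAA (C/EBP) or GAGGAAG (PU.1).
C9, chr15:6445196-6445345, plus strand: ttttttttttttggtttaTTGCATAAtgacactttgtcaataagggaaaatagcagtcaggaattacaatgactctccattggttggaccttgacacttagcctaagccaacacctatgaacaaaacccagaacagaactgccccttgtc
Fga, chr3:83026003-83026152, plus strand: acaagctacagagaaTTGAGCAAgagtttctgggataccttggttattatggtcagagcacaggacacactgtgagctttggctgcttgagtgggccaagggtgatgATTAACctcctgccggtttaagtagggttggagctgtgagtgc
Fgb, chr3:83049864-83050013, minus strand: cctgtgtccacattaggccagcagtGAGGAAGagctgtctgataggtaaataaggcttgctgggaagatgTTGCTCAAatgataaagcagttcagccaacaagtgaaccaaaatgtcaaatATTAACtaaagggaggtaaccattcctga
Fgg, chr3:83007574-83007723, plus strand: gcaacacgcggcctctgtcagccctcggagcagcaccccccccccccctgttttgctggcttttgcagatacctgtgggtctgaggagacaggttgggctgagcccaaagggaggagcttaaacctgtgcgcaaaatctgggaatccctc
C1qb, chr4:136886201-136886350, minus strand: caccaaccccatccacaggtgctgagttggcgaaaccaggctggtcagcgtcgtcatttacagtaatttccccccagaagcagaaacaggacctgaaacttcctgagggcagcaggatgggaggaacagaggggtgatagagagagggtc
Within 250 bases before a start site, GTTAAT was found for 9 of 31 hepatocyte-made members (29.0%) and for 7.49% of the 27025 genes with a promoter. TTGCNNAA was found for 8 of the 31 (25.8%) and for 10.8% of all genes, and GAGGAAG for 1 of the 31 (3.23%) and for 12.0% of all genes. CAAAGTCCA, a form of the HNF4 element, was found for 0 of the 31 and for 0.451% of all genes. Of the C1q subunits, Cfd and Cfp, 4 had a promoter, with GTTAAT in 1 (Cfp) and GAGGAAG in 1 (C1qc). These are matches of letters that were chosen after the expression values had been seen, and no binding was measured.

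The values are MAS5 signals on a linear scale, and the trimmed mean of every array was about 150. Levels are log2 of the signal plus 32, and differences, ratios and fold values below are on that scale. Signals of different probe sets are not compared with each other. The array of mTERC- tumour 2 stood apart, with a 3'/5' ratio of the Gapdh control of 13.8 against 0.983 to 1.18 on the other tumour arrays, and a mean correlation with the other arrays of 0.788 against 0.835 to 0.847. Over the tumour arrays the 18S control signal ran from 11010 to 27810, except in mTERC- tumour 2 with 318.5 and mTERC- tumour 3 with 349.0. It was 34.5 in the TRF2DBDM pool and 31.5 in the GFP pool. Where leaving mTERC- tumour 2 out turned a member's direction or moved its difference by over 1.5 times, the value without that tumour is given.

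In the tumours, complement and coagulation genes tended to have lower levels in the mTERC- group, but 0 members passed the threshold. Of the 40 members, all of which passed the filter on low values, 36 had a lower mean in mTERC- tumours, where 49.0% of the 11622 genes tested did. The median log2 difference (mTERC- minus mTERC+) was -0.55 over the members and 0.01 over all genes. In limma, 0 of 40 members had a Benjamini-Hochberg adjusted p below 0.05, where 0.0086% of all genes did, which is 1 gene. At an unadjusted p below 0.05 there were 12 members, all lower in mTERC-, where 5.03% of all genes were past that level and 2.54% were in that direction. Without mTERC- tumour 2 there were 3 such members (C1s1, C2 and Mbl1) against 2.33% of all genes. In the same 5 tumours 28 of 40 had a lower mean, and the members' median was -0.30. Leaving mTERC- tumour 2 out turned 9 members from lower to higher and 1, Plg, from higher to lower. Without mTERC+ tumour 1, 6 members had an unadjusted p below 0.05 in limma, where 461 of the 11622 genes did.

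**Figure D1:**
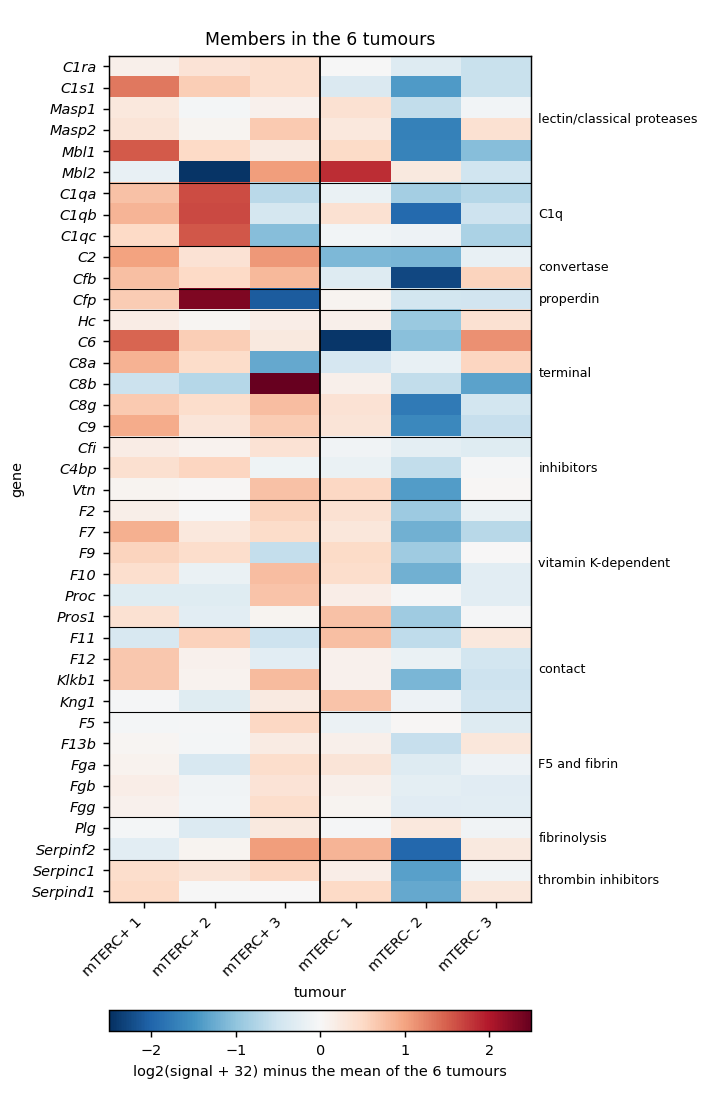
Log2(signal + 32) of the 40 members in each tumour minus the mean of the 6 tumours; rows are genes grouped by role, columns are tumours, and the colour scale ends at -2.5 and 2.5. The column of mTERC- tumour 2 is the bluest among the hepatocyte-made genes, and the C1q rows and Cfp are reddest in mTERC+ tumour 2.

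The macrophage-made C1q subunits form the hexameric recognition molecule that binds antibody on a target. C1qa (Entrez Gene 12259) had signals of 3242, 6071 and 1206 in mTERC+ tumours 1 to 3 and of 1728, 1060.3 and 1173 in mTERC- tumours 1 to 3. Its highest tumour was mTERC+ 2, and mTERC+ 3 lay inside the range of the mTERC- group. The means were 1320.3 ± 358 in mTERC- and 3506 ± 2443 in mTERC+ (SD, n = 3 each), -1.14 ± 0.48 as a log2 difference (SE; limma adjusted p = 0.956). C1qb (12260) had 4832, 8375 and 1935 in mTERC+ tumours and 3480.2, 666.0 and 1853 in mTERC- tumours, -1.37 ± 0.56 as a log2 difference (SE; limma adjusted p = 0.956). C1qc (12262) had 2312, 4816 and 757.0 against 1553, 1492 and 932.5, -0.65 ± 0.51 as a log2 difference (SE; limma adjusted p = 0.956). All 3 genes had their highest level in mTERC+ tumour 2, where 14.4% of all genes had theirs, and the groups overlapped for each. The C1q median of -1.14 was -0.61 when mTERC+ tumour 2 was left out, and it was -1.76 when mTERC+ tumour 3 was. Leaving out mTERC- tumour 2 gave -0.75. For C1qb alone it gave -0.75, and C1qc was at -0.04 when mTERC+ tumour 2 was left out.

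Macrophage markers that are not members moved with C1q across the tumours. Of 18 tested markers 17 had a lower mean in mTERC-, 17 were highest in mTERC+ tumour 2, and 10 were lowest in mTERC+ tumour 3. Their median log2 difference was -0.59, and with mTERC+ tumour 2 left out it was 0.07 with 7 of 18 lower, while leaving out mTERC+ tumour 3 gave -1.24. Their summed signal over 19 genes was 18703 to 23052 in mTERC- tumours and 12697 to 64590.4 in mTERC+ tumours, and no marker stayed below the array median on every tumour. The part of macrophage content in the C1q values was not tested. Neutrophil markers went the other way, with 9 of 9 tested genes at a higher mean in mTERC-. The summed signal over 11 genes was 30258 to 55741 in mTERC- against 20562 to 30474 in mTERC+ tumours. Lcn2, with a log2 difference of 0.04, made up most of every sum, at 21079 to 33517 and 20104 to 29158. S100a8 had 318, 776 and 150 in mTERC+ and 7407, 6053 and 2759 in mTERC- tumours (log2 difference 3.75; limma adjusted p = 0.0237). With mTERC- tumour 1 left out, 2 of the 9 had a lower mean. In bulk tissue, fewer cells of a type and less RNA per cell cannot be told apart.

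Properdin, which stabilises the convertase of the alternative pathway, varied most between single tumours of 1 group. Cfp (18636) had 577, 1945 and 60.6 in mTERC+ tumours and 380.3, 253 and 248.0 in mTERC- tumours. The highest and the lowest tumour were thus both mTERC+, and the span was 21.4-fold. The log2 difference was -0.59 (SE 0.75; limma adjusted p = 0.969), and it was 0.43 without mTERC+ tumour 2 and -1.78 without mTERC+ tumour 3.

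**Figure D2:**
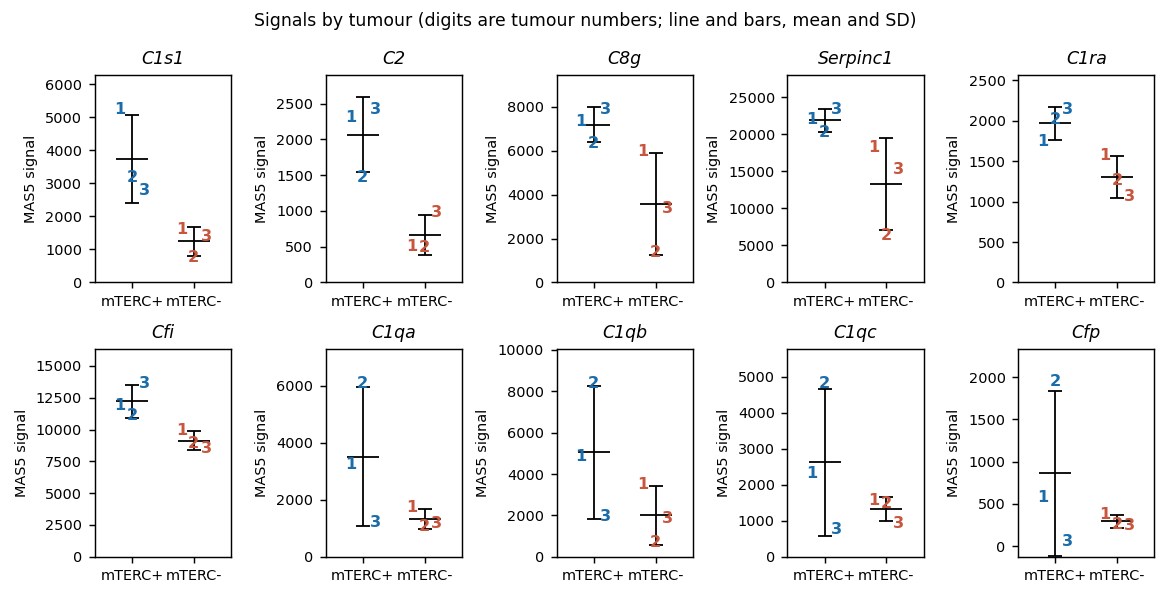
MAS5 signal (vertical axis) of the 6 members whose tumour groups did not overlap, of the C1q subunits and of Cfp, for mTERC+ and mTERC- tumours; digits are tumour numbers, and the line and bars are mean and SD of 3 tumours. C1s1 lies at 2781 to 5251 in mTERC+ and at 755.5 to 1596 in mTERC-, while the C1q subunits are spread widely within mTERC+.

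Among the proteases and lectins that start the classical and lectin pathways, 5 of 6 had a lower mean in mTERC-, with a median of -0.65 that was -0.30 without mTERC- tumour 2. C1s1 (50908), the protease of the C1 complex that cleaves the next components, had 5251, 3180.1 and 2781 in mTERC+ tumours. In mTERC- tumours it had 1596, 755.5 and 1389.8, so the groups did not overlap. The fold was 2.97 lower (log2 difference -1.57 ± 0.38 SE; limma adjusted p = 0.87), and without mTERC- tumour 2 the log2 difference was -1.25. Its probe set is of a kind that can match several transcripts of a gene family. The neighbour C1ra (50909), which activates that protease, had 1744, 2014 and 2143 in mTERC+ against 1576, 1263 and 1068 in mTERC-, again with no overlap. Its log2 difference was smaller, at -0.60 (SE 0.32; limma adjusted p = 0.956).

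The mannose-binding lectins had means of opposite direction, which for Mbl2 rested on single tumours. Mbl1 (17194) had 6106, 3002 and 2465 in mTERC+ and 2939, 639 and 987 in mTERC- tumours, -1.51 ± 0.49 as a log2 difference (SE; limma adjusted p = 0.926). Mbl2 (17195) had 168.5, 9.6 and 438 in mTERC+ and 789.6, 239.9 and 130.5 in mTERC- tumours, 1.07 ± 0.74 as a log2 difference (SE; limma adjusted p = 0.956). Both overlapped between the groups, and Mbl2 spanned 19.8-fold over the 6 tumours. Its difference was 0.11 when mTERC+ tumour 2 was left out, 0.41 when mTERC- tumour 1 was and 1.86 when mTERC+ tumour 3 was. The lectin-bound proteases Masp1 and Masp2 had log2 differences of -0.22 and -0.70, and without mTERC- tumour 2 they were at 0.04 and -0.03.

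Convertase components were represented by C2 and Cfb, neighbouring genes that supply the protease subunit of the classical and the alternative convertase. C2 (12263) had 2306, 1465 and 2422 in mTERC+ tumours and 505, 492 and 983 in mTERC- tumours. Every mTERC- tumour lay below every mTERC+ tumour, and C2 had the smallest unadjusted p of the members (0.00052). It was 3.11-fold lower in mTERC- (log2 difference -1.64, 95% interval -2.43 to -0.85, adjusted p = 0.83 in limma), and -1.47 without mTERC- tumour 2. The further C2 probe sets, present on the tumour array alone, had log2 differences of -1.09 and -1.33, but on both of them the groups overlapped, with mTERC- tumour 2 above mTERC+ tumour 2 (1487 against 715 and 945.6 against 929.7). Cfb (14962) had 12152, 10148 and 12578 in mTERC+ against 5713, 1458 and 10519.8 in mTERC- tumours. The groups overlapped, and the log2 difference of -1.37 (SE 0.53; limma adjusted p = 0.956) was -0.58 without mTERC- tumour 2.

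All 6 terminal components, which assemble the lytic pore, had a lower mean in mTERC-, with a median log2 difference of -1.24. The median was -0.71, with 4 of 6 lower, when mTERC- tumour 2 was left out. C8g (69379), which encodes the smallest subunit of a pore component, had 7337, 6322 and 7894 in mTERC+ and 5977, 1345 and 3354 in mTERC- tumours, with no overlap. Its log2 difference was -1.24 (SE 0.44; limma adjusted p = 0.956) and -0.67 without mTERC- tumour 2. C9 (12279), the polymerising pore protein, had 9546, 6137 and 7815.5 against 6260.3, 1626 and 3327, where mTERC- tumour 1 lay just above mTERC+ tumour 2. Its log2 difference was -1.24 (SE 0.42; limma adjusted p = 0.926) and -0.75 without mTERC- tumour 2. Hc, the gene of the component that C9 and its partners gather around, was at -0.28, turned to 0.12 without mTERC- tumour 2, and varied 2.46-fold over the tumours.

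The remaining terminal genes had single tumours far from the rest. C8b (110382) had 334, 293 and 4534 in mTERC+ and 546, 313 and 177 in mTERC- tumours, so mTERC+ tumour 3 alone was high and the span was 21.8-fold. Its log2 difference of -1.23 was 0.01 without that tumour. Its neighbour C8a (230558) had 2021, 1504 and 429.5 in mTERC+ and 805, 954 and 1601 in mTERC- tumours, and was lowest in that same mTERC+ tumour 3. For C8a the log2 difference was -0.04, and it ranged from -0.68 (mTERC+ tumour 3 left out) to 0.39 (mTERC+ tumour 1 left out), with 0.05 for mTERC- tumour 2 left out. These adjacent subunit genes therefore had no common order across the tumours. C6 (12274) had 1370.3, 751 and 570.5 in mTERC+ and 62, 216 and 1099 in mTERC- tumours, lowest in mTERC- tumour 1. Its log2 difference was -1.55, and it was -0.72 without mTERC- tumour 1 and -2.51 without mTERC- tumour 3. Tumour mTERC- 1 had a signal of 920.5 for Xist, the RNA of the inactive X chromosome, while the other 5 tumours had 9.6 to 68.4. In the same tumour the Y-linked Eif2s3y was at 70.5, inside the range of 52.8 to 219.8 over the other tumours. The sex of the animals was not in the labels used here, and its part in the C6 values was not tested.

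The complement inhibitors had smaller differences. Cfi (12630), the protease that inactivates the convertases, had 11913, 11132 and 13625 in mTERC+ and 9948, 8897 and 8532 in mTERC- tumours. The groups did not overlap, yet the fold was 1.34 lower (log2 difference -0.42 ± 0.30 SE; limma adjusted p = 0.956). C4bp, the cofactor that steers that protease to the classical convertase, was at -0.54. Vtn, the gene of vitronectin, which blocks pore insertion, was at -0.56, and at -0.01 without mTERC- tumour 2.

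Coagulation genes stood closer to 0 than complement genes. The 19 measured coagulation members had a median log2 difference of -0.29, with 16 lower and 3 higher in mTERC-, whereas the 17 hepatocyte-made complement members had -0.70, with 16 lower and 1 higher. Without mTERC- tumour 2 the coagulation median was -0.08 with 11 of 19 lower, and the complement median was -0.58 with 13 of 17 lower. With the 18S control as a covariate the medians were 0.19 and -0.27. The difference between the lists was not tested. Of the vitamin K-dependent genes, F7 (14068), the protease that tissue factor activates, had the largest difference. It had 1950.4, 1258 and 1443.5 in mTERC+ and 1272, 433 and 626 in mTERC- tumours, -1.08 ± 0.40 as a log2 difference (SE; limma adjusted p = 0.956) and -0.75 without mTERC- tumour 2. Its neighbour F10, the protease at the meeting point of the cascades, was at -0.69, and at -0.26 without mTERC- tumour 2. F2, the gene of prothrombin, was at -0.47, F9 at -0.26, and the anticoagulant genes Pros1 and Proc at -0.12 and -0.07. Without mTERC- tumour 2, F2 was at -0.13, F9 at 0.11 and Pros1 at 0.29. Proc turned to 0.27 without mTERC+ tumour 3.

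In the contact system, which starts clotting on charged surfaces, the genes split. Klkb1 (16621), plasma prekallikrein, had 2325, 1548 and 2528 in mTERC+ and 1567, 639.9 and 1006 in mTERC- tumours. Its log2 difference was -1.03 (SE 0.38; limma adjusted p = 0.956). F11, which lies next to it, was at 0.24 (95% interval -0.73 to 1.22), and between -0.07 and 0.62 when mTERC- tumour 1 or 2 was left out. F12 was at -0.34 and Kng1, the gene of kininogen, at 0.07, and at 0.15 without mTERC- tumour 2.

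Fibrinogen and factor genes of the clot itself were among the most even members. Fga had 18485, 13057 and 23572 in mTERC+ and 21746.5, 13781 and 15841 in mTERC- tumours, with a span of 1.80-fold over all 6. Fgb spanned 1.55-fold and Fgg 1.66-fold, and all 3 chains were highest in mTERC+ tumour 3. Their log2 differences were -0.09, -0.27 and -0.32, with 95% intervals from -0.98 to 0.63 over the chains. F5, the cofactor of the prothrombin-cleaving protease, was at -0.29 and F13b, a carrier subunit of the fibrin cross-linking enzyme, at -0.13. Fga was at 0.06 and F13b at 0.14 when mTERC- tumour 2 was left out.

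Of the fibrinolysis genes, Plg (plasminogen) was at 0.09, and at -0.02 without mTERC- tumour 2, and was the 1 member whose highest tumour was mTERC- 2. Serpinf2, the inhibitor of plasmin, had 5553, 6987 and 13819 in mTERC+ and 12006, 1684.5 and 7876 in mTERC- tumours. Its log2 difference was -0.58 and turned to 0.26 without mTERC- tumour 2. Among the thrombin inhibitors, Serpinc1 (11905), the gene of antithrombin, had 21998.5, 20224 and 23396 in mTERC+ and 18248, 6312 and 15249 in mTERC- tumours. The groups did not overlap, and the log2 difference was -0.85 (SE 0.38; limma adjusted p = 0.956) and -0.39 without mTERC- tumour 2. Serpind1, heparin cofactor, was at -0.33 and at 0.23 without that tumour.

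Groups without overlap were few. For 6 of 40 members (C1ra, C1s1, C2, C8g, Cfi and Serpinc1) every mTERC- tumour lay below every mTERC+ tumour, where 4.5% of all genes did, and for 0 members the reverse held, against 5.63% of all genes. Without mTERC- tumour 2 the count was 7 of 40, against 9.61% of all genes.

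The hepatocyte-made genes and the C1q subunits were low in mTERC- tumour 2, the tumour whose array had the high Gapdh 3'/5' ratio. Of the 40 members 25 were lowest in mTERC- tumour 2, where 23.0% of all genes were. These were 23 of the 36 hepatocyte-made genes and 2 of the 3 C1q subunits. By list, the mean deviation from the 6-tumour mean in that tumour was -1.02 for hepatocyte-made complement, -0.68 for coagulation and -0.97 for C1q. Hepatocyte markers that are not members did not share it, with a mean deviation of 0.03 over 20 genes, of which 3 were lowest there. Their summed signal over 19 genes was 209452 to 309808 in mTERC- and 270121 to 315294 in mTERC+ tumours. The highest tumour for 18 of the 40 members was mTERC+ 3, against 15.7% of all genes. The coagulation median was -0.48 without mTERC- tumour 1 and -0.18 without mTERC+ tumour 3.

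**Figure D3:**
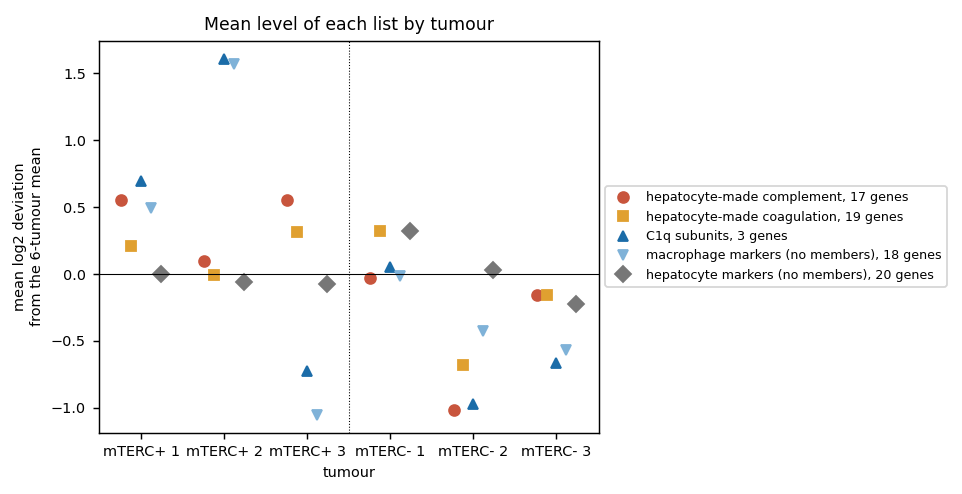
Mean log2 deviation from the 6-tumour mean (vertical axis) of each gene list in each tumour (horizontal axis); 1 point per list and tumour. C1q and macrophage markers peak together in mTERC+ tumour 2, at 1.61 and 1.57. Hepatocyte-made complement, coagulation and C1q are lowest in mTERC- tumour 2, and hepatocyte markers are not.

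Other probe sets of the same gene did not always give the same direction. Of the 40 genes 7 had more than 1 shared probe set. The F10 probe set used above had a log2 difference of -0.69, while its others had 0.28 and 0.41. In mTERC- tumour 2 the first had a signal of 2319, the lowest of the 6 tumours, and the others had 377.5 and 1192, the highest. Masp2 had -0.70 and 0.63 on its probe sets, with mTERC- tumour 2 lowest on the first, at 219, and highest on the other, at 329. F5 had -0.29 and 0.21. For C1qb the other probe sets had -0.34 and -0.32, against -1.37, and again mTERC- tumour 2 was the lowest on the first alone. The Gapdh 3'/5' ratio of that array was 13.8, and its part in these disagreements was not tested.

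Further genes of the pathways gave 0 calls in limma. Of 10 tested plasma complement genes 8 had a lower mean in mTERC-, with a median log2 difference of -0.53. They included Cpn1, a subunit of the carboxypeptidase that clips anaphylatoxins, at 1303 ± 781 against 2616 ± 1001, and Colec11, a collectin, at 110.4 ± 89.6 against 289 ± 66.1 (SD, n = 3 each). Complement receptors and surface regulators had a median of -0.25 over 12 genes. Among these Vsig4, a receptor of Kupffer cells for complement fragments, was at -1.39 (SE 0.81; limma adjusted p = 0.956). It had 805, 2724 and 125 in mTERC+ and 408, 449 and 63.2 in mTERC- tumours. Itgam, a chain of a complement receptor on myeloid cells, was at 1.11 (SE 0.54; limma adjusted p = 0.956). It had 5.4, 109 and 62.8 in mTERC+ and 153, 122 and 144 in mTERC- tumours. The median was -0.19 over 17 plasma coagulation genes, 13 of them lower in mTERC-, and 0.21 over 11 surface genes. Without mTERC- tumour 2 these turned to 0.07, with 6 of 17 lower, and to -0.16. The complement surface median was -0.11 without mTERC+ tumour 3. In the coagulation surface list Procr, the receptor of protein C, was at 50.2 ± 47.3 against 153 ± 35.9. Unadjusted p below 0.05 in limma was reached by 2, 0, 3 and 1 genes of these lists, all lower in mTERC-. Of all genes 5.03% reached it, and 2.54% did so in that direction. Without mTERC- tumour 2 the counts in either direction were 1, 0, 1 and 1, where 502 of the 11622 genes reached it.

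In the adenovirus pair, all 39 complement and coagulation genes compared had a higher level in the TRF2DBDM pool than in the GFP pool, except Fgb and Serpinf2 when each array was centred on its median, and Fgb after quantile normalisation. There was 1 array per pool, so these values carry no error and describe the 2 pools. Members were compared where either array had them no lower than its median, which left 39, and 39 were higher with TRF2DBDM, where 51.4% of the 7564 genes compared were. At least 2-fold higher were 17 members, against 4.72% of all genes, and 0 were at least 2-fold lower, against 3.04%. Cfp, C8a and F13b were below the GFP array's median signal of 46.1, so they were compared only through the pool where they were high. Of the 36 members that reached the median on both arrays, 36 were higher and 14 at least 2-fold higher, where 3.64% of 6378 genes were. The median ratio was 1.97 over the members and 1.01 over all genes. Centring each array on its median shifted all genes by -0.11 (log2), which left 37 of 39 members higher, with Fgb at -0.04 and Serpinf2 at -0.09, and quantile normalisation put Fgb at -0.01. C6 was not compared, with signals of 24.3 and 11.7, below the median of both arrays.

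**Figure D4:**
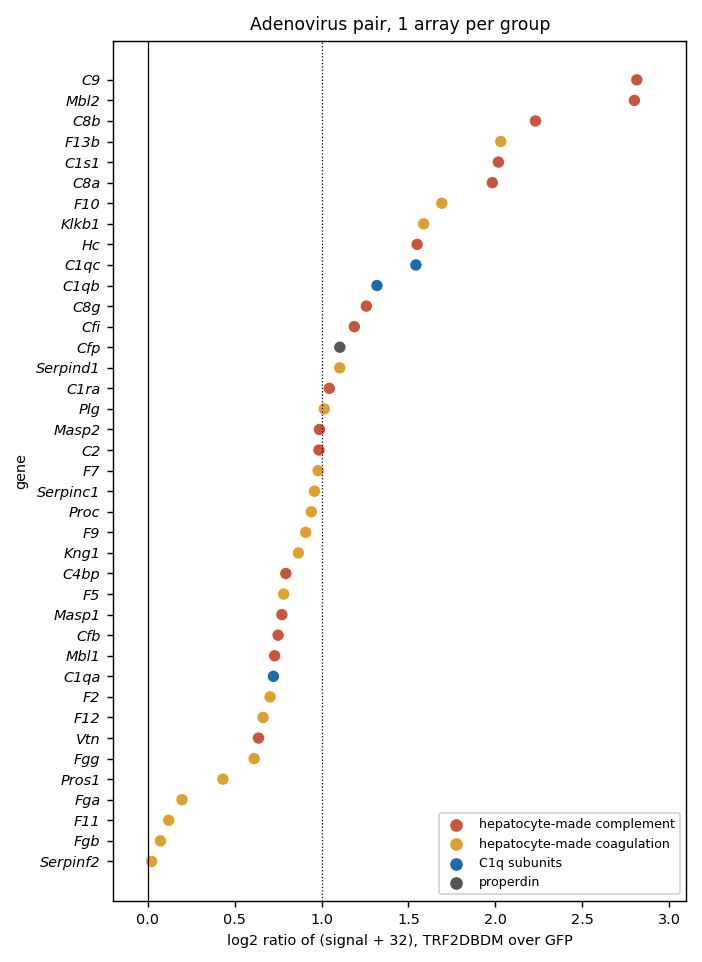
Log2 ratio of (signal + 32) between the TRF2DBDM and the GFP array (horizontal axis) for the 39 members compared, sorted by ratio; colours mark the source and cascade, and the dotted line is a 2-fold ratio. Points run from 0.02 for Serpinf2 to 2.81 for C9; with each array centred on its median, Fgb and Serpinf2 lie below 0.

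The terminal complement genes had the highest median ratio of the roles. C9 had a signal of 792.5 in the TRF2DBDM pool and 85.2 in the GFP pool, a ratio of 7.03. C8b had 628 against 109, C8a had 228.5 against 33.9, the latter below the array median, Hc had 611 against 187.5 and C8g had 1414 against 573. Each of these 5 genes was at least 2-fold higher, with a median ratio of 3.95. That median is the ratio of C8a, which was compared only through the pool where it was high. The ratios of C9, C8b, Hc and C8g were 7.03, 4.70, 2.93 and 2.39, and C6 was not compared. Mbl2 had the next highest ratio of all members after C9, at 6.97, with 2350.4 against 309.9. Its relative Mbl1 had 633 against 369, a ratio of 1.66. C1s1 had 477.5 against 93.8, a ratio of 4.05, and C1ra had 606 against 277, a ratio of 2.06. C2 and Cfb lay just below 2-fold, at 1.98 and 1.68.

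C1q was also higher in the TRF2DBDM pool. C1qa had 229 against 126, C1qb had 389 against 137 and C1qc had 211 against 51.4, with ratios of 1.65, 2.49 and 2.91. Cfp had 130.4 against 43.5, a ratio of 2.15 with the GFP signal below the median of its array. Of 16 compared macrophage markers 13 were higher and 3 lower, with a median ratio of 1.80. Aif1, Mrc1, Cd5l and Msr1, all higher, had a GFP signal below the median of that array. They were compared only through the pool where they were high. Lyz2, a lysozyme, had 549.7 against 134, while Cd14, a co-receptor for endotoxin, had 353 against 1261. The summed signal of 19 macrophage markers was 3924 and 3548. These sums include the 3 lower markers, which were Cd14, Cd68 (320 against 799) and Mpeg1 (165 against 272). Clec4f and Marco, which mark Kupffer cells, and Cd163 were below the median of both arrays. The part of macrophage content in these ratios was not tested.

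Coagulation genes ran from near equal in both pools to well above 2-fold. F10 had 2562 against 771, a ratio of 3.23, and Klkb1 had 247 against 60.7, a ratio of 3.01. The order of these genes depends on the added 32, since the plain signal ratios were 3.32 and 4.06. F13b had 249.6 against 36.9, a ratio of 4.09, with the GFP signal below the median of that array. Of the 19 coagulation genes 5 were at least 2-fold higher, with a median ratio of 1.82, against 9 of 16 and 2.17 for hepatocyte-made complement. The lowest ratios of all members were those of Serpinf2 (1.02; 2817 against 2775), Fgb (1.05; 7304 against 6945), F11 (1.09; 196 against 178), Fga (1.15; 5129 against 4473), Pros1 (1.35; 85.9 against 55.4) and Fgg (1.53; 6595 against 4304). Fga, Fgb, F11 and Serpinf2 were thus near equal in both pools. The neighbours F11 and Klkb1 had unlike ratios, 1.09 and 3.01, while the neighbours C8a and C8b had 3.95 and 4.70.

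Hepatocyte markers that are not members were higher too, at 19 of 19, with a median ratio of 1.74 and 8 at least 2-fold higher. Their summed signal was 103205 in the TRF2DBDM pool and 67367 in the GFP pool. Cyp7a1 (189.8 against 34.9) was compared only through the TRF2DBDM pool, where it was high. The part of hepatocyte content or of a general difference in liver genes in the members' ratios was not tested. Regulators and targets of the acute phase response, in which the liver alters its plasma proteins, had a median ratio of 1.13 over 20 genes. Of these 0 were at least 2-fold higher and 1 was at least 2-fold lower. The latter was Socs3, a feedback inhibitor of cytokine signalling (34.3 against 106), which was compared only through the GFP pool, where it was high. Of 14 other plasma coagulation genes 10 were higher and 4 lower (Lman1, Ggcx, Serpina10 and Mcfd2), with a median ratio of 1.69. Of 7 other plasma complement genes 5 were higher and 2 lower (A2m and Clu), with a median ratio of 1.44 and 0 at least 2-fold in either direction. In these plasma lists F13a1 and Cfhr2, both higher, were compared only through the TRF2DBDM pool, and A2m only through the GFP pool. In the coagulation list, Hrg, histidine-rich glycoprotein, had 2969 against 600.5 and Habp2, a plasma protease, had 509.7 against 161. In the coagulation surface list 7 of 10 genes were lower with TRF2DBDM. Among them were Anxa2 and S100a10, which together form a plasminogen receptor, at 933 against 4711 and 2124 against 4630.0. Of the 10, F2rl2 and Itga2b, both lower, reached the median of the GFP array alone. Gp1bb and Gp5, both higher, reached that of the TRF2DBDM array alone. The complement surface list went the other way, with 8 of 9 genes higher and 1 lower. At least 2-fold higher were 2 of them, C3ar1 (143 against 43.9) and C5ar1 (75.3 against 19.2). Both, and Itgax (71.7 against 26.8), had a GFP signal below the median of that array. These genes were compared only through the pool where they were high.

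Levels of the 2 array types were normalised separately, so positions within each array were set side by side with no test. Each value is the percentile of a signal among the 22690 shared probe sets of its own array. The median percentile of hepatocyte-made complement was 92.0 to 98.0 over the tumours, 92.7 in the TRF2DBDM pool and 84.2 in the GFP pool. For coagulation it was 97.3 to 98.5, 97.6 and 94.2, and for C1q 92.0 to 98.4, 81.8 and 71.2. In the GFP pool 31 of 40 members lay below every tumour, where 23.0% of 8999 genes did. In the TRF2DBDM pool 21 did, where 22.8% of genes did, and 3 lay above every tumour, against 19.4% of genes. Hc, at percentile 97.8 to 99.3 in the tumours, was at 92.6 and 78.3 in the pools, and C9, at 95.1 to 99.0, was at 94.3 and 63.4. Mbl2, at 11.3 to 88.8 in the tumours, was above them at 98.2 in the TRF2DBDM pool and inside their range at 85.6 in the GFP pool. C6 lay at 37.8 to 92.9 in the tumours and at 31.5 and 22.2 in the pools. Xist had signals of 3607 and 2308 on the pool arrays and Eif2s3y had 2.3 and 0.7. Array type, tumour against liver, the virus, the HBs transgene and any difference in age cannot be told apart in these positions. The sex of the animals was not in the labels used here, and its part in these positions was not tested.

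**Figure D5:**
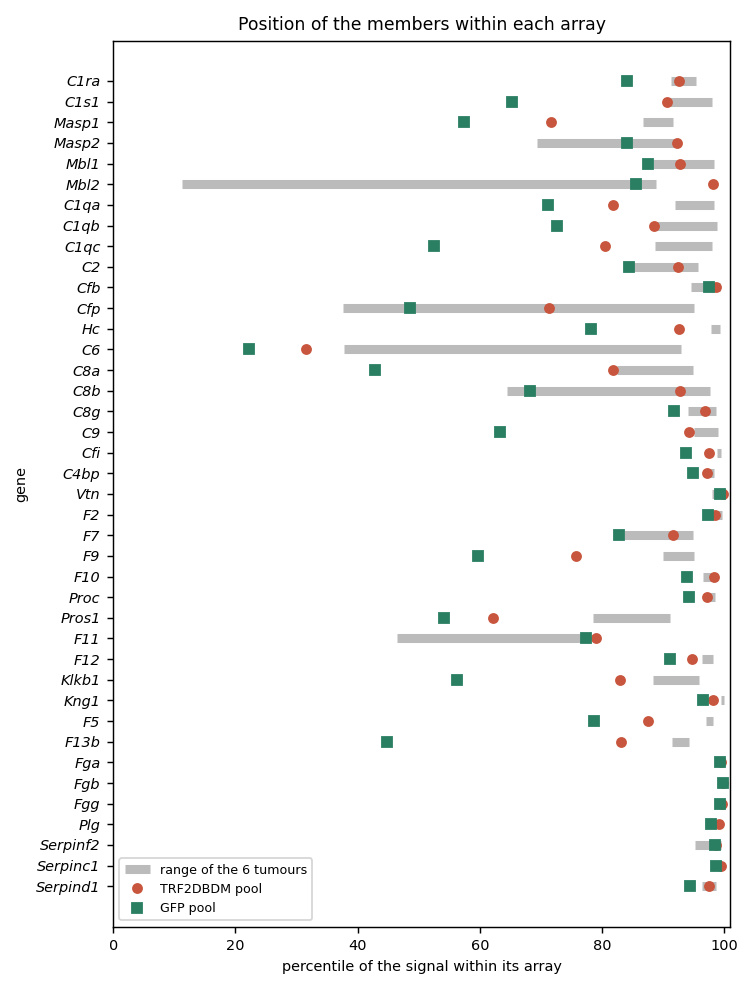
Percentile of each member's signal within its array (horizontal axis), as the range of the 6 tumours (grey bars), the TRF2DBDM pool (circles) and the GFP pool (squares). Squares lie left of the grey bar for 31 of 40 genes, and the circle lies right of the square for every gene but Fgb.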

How the data were processed

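RNA of 6 tumours and 2 pooled livers was labelled and hybridised to 2 Affymetrix array types. The values the authors deposited are linear signal intensities, made with MAS5 according to the submitters' processing notes, and the trimmed mean (2% cut at each end) of every array was about 150. The genome build and any later step were not given in the sources used here. Gene symbols came from the platform annotation, and probe sets with several symbols were left out.

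Levels were log2(signal + 32). A gene was represented by the probe set, among those on both array types, with the highest mean level in the tumours. Genes with no shared probe set were represented by their highest probe set on the tumour array. Of the genes tested in the tumours, 8999 had a shared probe set, as did every member analysed. Genes whose mean reached the median over probe sets, 11622 in all, were tested with limma 3.58.1 in R 4.3.3 (mTERC- against mTERC+, 3 tumours each, eBayes with a variance trend, Benjamini-Hochberg adjustment over all genes tested, threshold 0.05). The tumours came from separate mice. Tumour numbers follow the order of deposit and pair no samples. The adenovirus pair, with 1 array per group, gave ratios and no test, for genes that reached the median of either array. The 2 array types were normalised separately and no test was made across them. The number of arrays limits the precision.

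The members and lists were chosen with earlier results of these data known. Values in every tumour were printed for members past the threshold, for C1q and Cfp, and for up to 12 members without overlap. The latter were taken by smallest unadjusted p (there were 6). Values in both pools were printed for the 10 highest and 6 lowest adenovirus ratios. Up to 4 genes were named per further list by smallest p or largest ratio. Genes named beside these were chosen after their values were seen. Tested on simulated data with 11622 genes and 3 against 3 tumours, the fit recovered 37 of 100 genes changed 4-fold and 74 of 100 changed 8-fold, called 8 unchanged genes, and called 0 where nothing was changed. Alternatives covered normalisation, pseudocount, level filter, choice of probe set, variance model, array weights, covariates and leaving out each tumour. A filter on both adenovirus arrays was added after seeing the data.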

Additional observations from a re-analysis of the deposited data

How the results depend on the processing

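No member passed the adjusted threshold in limma under any of the 18 alternatives run for the tumours, and the lowest adjusted p of a member was 0.189. Over all genes the count past the threshold was 1, and it was 0 with median centring, a pseudocount of 1, a filter at percentile 75, the mean of probe sets, no variance trend, the Y-linked covariate or the 18S covariate. It ranged from 0 to 6 when 1 tumour was left out, being 6 when mTERC- tumour 1 was left out, 3 for mTERC+ tumour 2, and 0 for mTERC- tumour 2, mTERC+ tumour 1 or mTERC+ tumour 3. The median log2 difference of hepatocyte-made complement, -0.70, was -1.24 with the Y-linked covariate (3 of 4 listed genes had a usable probe set) and -0.27 with the 18S covariate. The coagulation median of -0.29 turned to 0.19 with the 18S covariate. The cause was not tested. Of 720 member values in the tumours 46 changed sign, and 20 of 40 members kept their sign throughout. In the adenovirus pair 37 of 39 members kept their sign, and 13 (median centring) to 22 (pseudocount 1) were at least 2-fold higher. No paired analysis was possible because the labels number no replicates across the groups. With 3 tumours per group, and 1 pool per virus, small differences were not detectable.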
